A study of Mus musculus with 6 samples.

Results

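The genes described here are 8 regulators and markers of corticofugal and deep-layer neurons, the cortical projection neurons whose axons leave the cortex: Tbr1, Fezf2, Bcl11a, Bcl11b, Sox5, Tle4, Zfpm2 and Crym. They were chosen by name, all 8 were found among the 34289 genes of the series, and all 8 passed the filter on low counts. Most of them encode DNA-binding transcription factors. Tle4 encodes a corepressor of the Groucho family, Zfpm2 (FOG2) a cofactor of GATA factors, and Crym encodes mu-crystallin, a thyroid hormone-binding enzyme that marks corticospinal neurons and is not a transcription factor.

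The study sequenced RNA from postmitotic neurons of E14.5 mouse embryonic cortex, in 3 control libraries of genotype Rp58+/+ and 3 mutant libraries of genotype Rp58-/-. Rp58 is now called Zbtb18 and encodes a zinc finger repressor that cortical neurons need to mature, and the comparison asks how its absence changes their transcripts. The labels give no agent or driver line, nor how the neurons were isolated, nor whether different embryos gave the libraries of one genotype, so p-values measure the spread between these libraries, which may be technical. Library numbers serve only as names and do not match controls to mutants.

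Total estimated counts lay between 34645505 and 75892649 per library. The deposited effective lengths divide the libraries into 2 types. In control 1, mutant 1 and mutant 2 every long transcript was 249 bases longer than its effective length (fixed-length libraries), and in control 2, control 3 and mutant 3 the difference was estimated per library, from 133.7 to 139.2 bases (estimated-length libraries). Mitochondrially encoded genes took 3.58% to 5.15% of counts in the first type and 16.4% to 17.5% in the second. Because the types cross the genotypes unevenly, the test used here has a term for library type, and effects within each type are given beside it. Zbtb18 itself had 1902, 1587 and 1697 CPM (counts relative to each library's normalized total) across the controls, in numbered order, and 46.7, 45.7 and 538 CPM across the mutants. The fall was -3.49 ± 0.81 on the log2 scale (adjusted p = 0.0337, edgeR quasi-likelihood test with library type), and was not called without the type term (adjusted p = 0.4). With a library left out it ranged from -1.59 (without control 1) to -5.36 (without mutant 3), and omitting control 3, mutant 1 or mutant 2 ended the call (adjusted p = 0.0511, 0.119 and 0.0899). The library labelled mutant 3 kept 32.8% of the level of the controls of its type, against 2.43% in the other mutants, so effects on the 8 genes are also given within each type.

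During corticogenesis deep-layer neurons are born before upper-layer neurons, and their identity is set by factors that activate one projection program and repress others. FEZF2, acting with CTIP2 (the product of Bcl11b), specifies subcerebral neurons that project to the spinal cord and brainstem. TBR1 specifies corticothalamic neurons of layer 6 and represses Fezf2 there, and SOX5 controls the sequence in which subplate, corticothalamic and subcerebral neurons are made.

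In the mutant neurons 6 of the 8 genes fell and none rose. Sox5 fell most, 3.41-fold, Fezf2, Bcl11b, Tle4 and Tbr1 fell between 1.91-fold and 2.06-fold, and Bcl11a fell 1.44-fold. Zfpm2 and Crym had higher fitted levels in the mutants, and neither passed the test. For comparison, 14.9% of the 16985 genes tested were called (edgeR quasi-likelihood test with library type, Benjamini-Hochberg adjusted p under 0.05), 7.01% fell and 7.92% rose. The median log2 fold change of the 8 genes was -0.96, and that of all genes tested was 0.00021. Without the term for library type, where 2.36% of genes were called and 0.765% fell, only Sox5 and Fezf2 of the 8 passed. Without mutant 3 the test with the term called 6 of the 8, with Zfpm2 in and Bcl11a out. The 3 mutants lay below all 3 controls for 5 of the 8 genes, against 6.64% of all genes. Within the fixed-length libraries 5 of the 8 fell and 1 rose (3.41% and 6.05% of all genes), and within the estimated-length libraries 6 fell and none rose (3.32% and 4.6%).

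**Figure D1:**
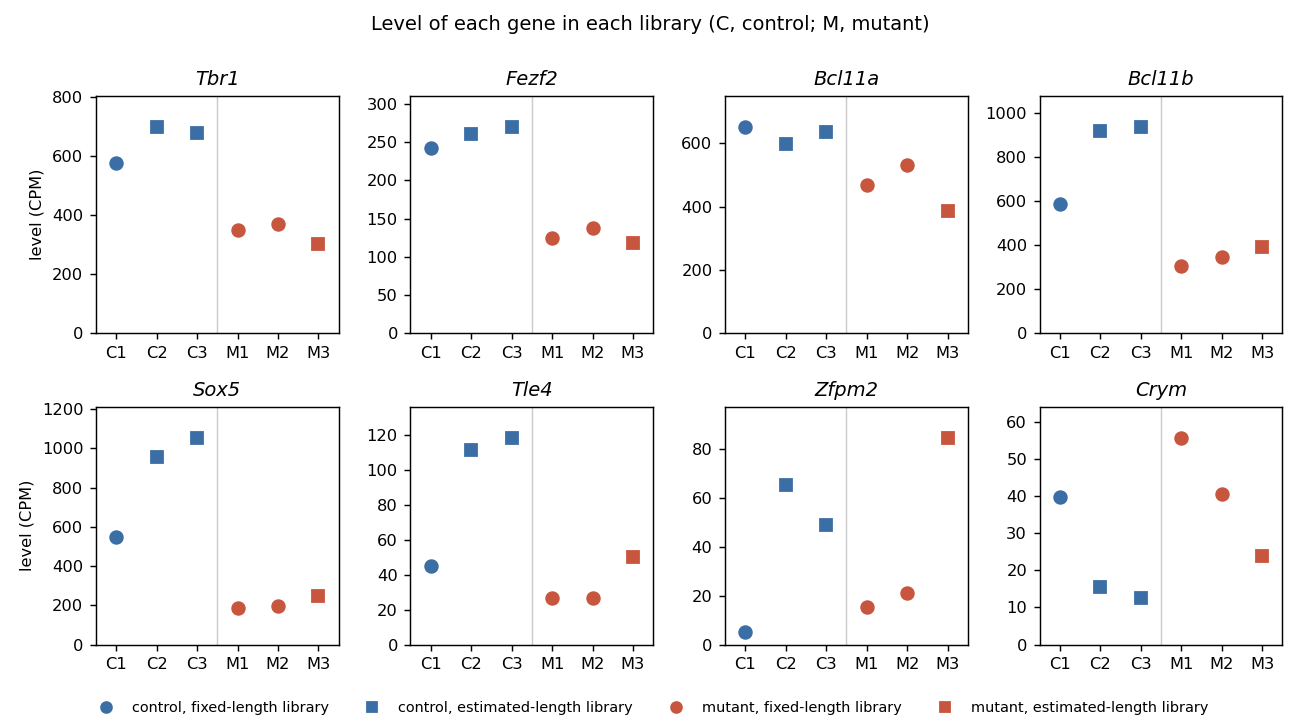
Level of the 8 genes in each library, in CPM on linear axes from 0, one point per library (blue, control; red, mutant; circles, fixed-length libraries; squares, estimated-length libraries). The 3 mutants lie under all 3 controls for Tbr1, Fezf2, Bcl11a, Bcl11b and Sox5, and the groups overlap for Tle4, Zfpm2 and Crym.

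RefSeq (GRCm38.p6) gives a promoter window for 6 of the 8 genes, and those of 4 genes that fell are shown. Bcl11a and Tle4, which also fell, have windows that are not printed. Each line holds the 250 bases before the annotated start, 5′ to 3′ on the gene's strand.
Tbr1: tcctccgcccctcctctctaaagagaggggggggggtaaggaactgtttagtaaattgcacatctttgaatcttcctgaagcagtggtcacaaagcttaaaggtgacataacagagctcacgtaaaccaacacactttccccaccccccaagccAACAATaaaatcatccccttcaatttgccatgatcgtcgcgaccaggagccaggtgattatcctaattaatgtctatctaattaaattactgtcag
Fezf2: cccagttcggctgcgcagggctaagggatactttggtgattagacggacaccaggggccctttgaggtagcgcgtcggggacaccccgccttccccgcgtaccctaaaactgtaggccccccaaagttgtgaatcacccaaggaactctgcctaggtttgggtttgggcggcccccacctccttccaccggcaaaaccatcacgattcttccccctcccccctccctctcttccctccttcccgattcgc
Bcl11b: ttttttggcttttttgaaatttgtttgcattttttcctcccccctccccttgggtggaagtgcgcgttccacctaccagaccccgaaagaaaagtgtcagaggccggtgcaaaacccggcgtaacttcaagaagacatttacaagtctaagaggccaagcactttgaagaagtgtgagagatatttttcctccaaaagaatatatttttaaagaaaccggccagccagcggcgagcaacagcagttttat
Sox5: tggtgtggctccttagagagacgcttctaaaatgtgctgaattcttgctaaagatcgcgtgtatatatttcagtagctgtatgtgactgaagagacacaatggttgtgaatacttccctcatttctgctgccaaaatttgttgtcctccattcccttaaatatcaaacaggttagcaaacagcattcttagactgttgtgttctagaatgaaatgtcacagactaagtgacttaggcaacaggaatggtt
The Tbr1 window is chr2:61804203-61804452, plus strand, and ends at the start of the transcript model Tbr1-201. The Fezf2 window is chr14:12345866-12346115, minus strand. The nearest annotated start, 21 bases away, is that of Fezf2-203, a model that is not among the transcripts of the series. The Bcl11b window is chr12:108003415-108003664, minus strand, before the start of the minor model Bcl11b-202, which held at most 1.6% of the gene's TPM. The Sox5 window is chr6:143947107-143947356, minus strand, and belongs to the start of the short model Sox5-204, not to those of the longer models. Capitals mark AACAAT, a core recognised by SOX factors, which was found on either strand in the windows of 2 of the 6 genes, Tbr1 (96 bases before the start) and Tle4. It occurs in 8.22% of the 21263 windows of protein-coding genes. ACATCTG, the core of the RP58 site, and its inner E-box CATCTG, with which it overlaps, were in none of the 6 genes' windows on either strand. They occur in 3.11% and 12.4% of all windows. GGTGTGA, a T-box core, was in none either and occurs in 3.08%.

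Sox5, a SOXD-family factor without an activation domain of its own, had 547, 957 and 1053 CPM in the control libraries and 187, 196 and 247 CPM in the mutant libraries, each in the order of their numbers. Every mutant lay under the lowest control, and the 2 controls of estimated length were the highest libraries. Its log2 fold change was -1.77 ± 0.14 (SE, adjusted p = 0.00039, edgeR quasi-likelihood test). Within the fixed-length libraries it was -1.51 ± 0.13 (adjusted p = 0.00205), and within the estimated-length libraries -2.02 ± 0.15 (adjusted p = 0.00114). The mutants thus held 35.0% and 24.6% of the level of the controls of their own type. The test also called Sox5 without the term for library type (adjusted p = 0.041) and whichever library was left out with it (adjusted p up to 0.00407).

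Fezf2, the zinc finger selector of subcerebral neurons, had 243, 261 and 270.5 CPM in the controls and 125, 137 and 118 CPM in the mutants. Fixed-length and estimated-length libraries of the same genotype lay side by side for this gene, and the groups were far apart. The log2 fold change was -1.03 ± 0.10 (adjusted p = 0.001), with -0.89 ± 0.13 and -1.17 ± 0.14 within the fixed-length and the estimated-length libraries (adjusted p = 0.0115 and 0.0059). The edgeR test called it without the library type term as well (adjusted p = 0.0449), and in each fit with the term and a library left out (adjusted p up to 0.0128).

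Bcl11b, whose product CTIP2 acts downstream of FEZF2 in corticospinal axon growth and is also used by striatal neurons, had 588, 919 and 939 CPM in the controls and 307, 346 and 394 CPM in the mutants. The highest mutant was below the lowest control, which was the control of fixed length. The edgeR test gave a log2 fold change of -1.04 ± 0.12 (adjusted p = 0.00188), and -0.85 ± 0.13 and -1.24 ± 0.14 within the 2 library types (adjusted p = 0.0152 and 0.00577). Bcl11a, its close relative, which encodes CTIP1 and is used by deep-layer and upper-layer neurons alike, changed less. It had 653, 598 and 635 CPM in the controls and 468, 531 and 388 CPM in the mutants, and the groups did not overlap. Its log2 fold change was -0.53 ± 0.11 (adjusted p = 0.021), and it passed within the estimated-length libraries (-0.67 ± 0.15, adjusted p = 0.0493) but not within the fixed-length libraries (-0.39 ± 0.14, adjusted p = 0.16, edgeR). Leaving out any library except mutant 2 ended the call of Bcl11a (adjusted p up to 0.159). It was also lost with length-scaled counts (adjusted p = 0.0528).

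Tbr1, the T-box factor of layer 6, had 577, 700.3 and 679 CPM in the controls and 351, 370.2 and 303 CPM in the mutants, so that each mutant was lower than each control. The log2 fold change was -0.93 ± 0.13 (adjusted p = 0.00464, edgeR), with -0.68 ± 0.12 within the fixed-length and -1.19 ± 0.13 within the estimated-length libraries (adjusted p = 0.025 and 0.00505). Tle4, which marks corticothalamic neurons, had 45.2, 111 and 118 CPM in the controls and 26.8, 26.4 and 49.9 CPM in the mutants. Mutant 3 lay above control 1, a library of the other type, but within each type the mutants were lower. The log2 fold change of Tle4 was -0.98 ± 0.11 (adjusted p = 0.00207, edgeR), with -0.76 ± 0.11 and -1.20 ± 0.12 within the types (adjusted p = 0.0126 and 0.00328). Tbr1, Bcl11b and Tle4 were called in each of the 6 fits with the term and a library left out, and none of them without the term (adjusted p = 0.117, 0.115 and 0.32).

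Zfpm2, which marks corticothalamic neurons beside its role in the heart, was not lower in the mutants. It had 5.06, 65.4 and 49.1 CPM in the controls and 15.3, 21.2 and 84.7 CPM in the mutants, so that all 3 estimated-length libraries were higher than all 3 fixed-length ones and the genotypes overlapped. Over all libraries the log2 fold change was 1.19 ± 0.33 and did not pass (adjusted p = 0.0583, edgeR), and the fit lacking the type term gave 0.021 ± 1.06. Within the fixed-length libraries it rose by 1.84 ± 0.29 (adjusted p = 0.0152), while the difference of 0.57 ± 0.24 within the estimated-length libraries did not pass (adjusted p = 0.264). The single control of fixed length had 159 counts for this gene, the fewest of any of the 8 genes in any library. Without mutant 3 or control 2 the edgeR test with the term called it (adjusted p = 0.0177 and 0.0484), and so did DESeq2 (adjusted p = 0.000714), which called 24.2% of genes, and the edgeR fits with other size factors or no filter on low counts (adjusted p = 0.0495 and 0.000549).

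Crym had 39.8, 15.6 and 12.7 CPM in the controls and 55.8, 40.5 and 23.7 CPM in the mutants. The mutants were above the controls of their own type, but control 1 was above mutant 3. Its log2 fold change of 0.51 ± 0.17 did not pass (adjusted p = 0.103), nor did those of 0.27 ± 0.23 and 0.75 ± 0.22 within the types (adjusted p = 0.511 and 0.123, edgeR). Once mutant 2 was omitted, the edgeR test called it (adjusted p = 0.023), as it did with no filter on low counts (adjusted p = 0.0179).

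**Figure D2:**
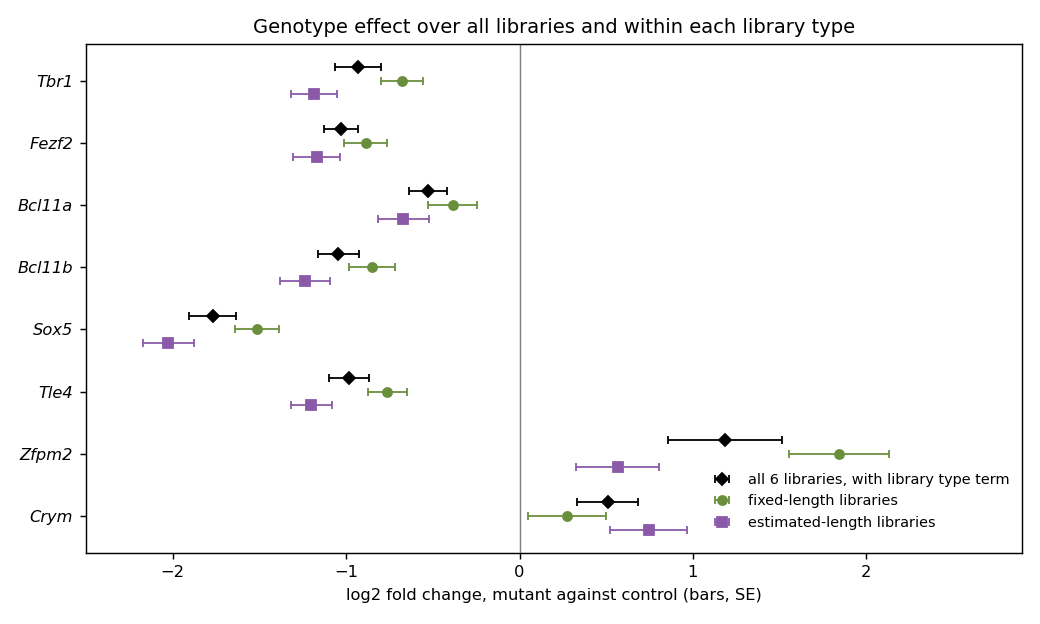
Log2 fold change of mutant against control for the 8 genes, with SE bars, over all 6 libraries with the library type term (diamonds) and within the fixed-length (circles) and estimated-length (squares) libraries. Both types give the same sign for each gene, and Sox5 lies farthest below 0.

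All 8 genes had the same sign within both types, as did 68.9% of all genes tested. The size was larger in the estimated-length libraries for 7 of the 8, all but Zfpm2, and the share of all genes with this trait was not counted. In the test of the difference between the types none of the 8 passed after adjustment (adjusted p from 0.484 to 0.89, edgeR). Of all genes 0.153% were called, 0.118% with a lower and 0.0353% with a higher effect in the estimated-length libraries. Before adjustment 4 of the 8 had a p under 0.05 (Zfpm2, Tbr1, Tle4 and Sox5), as did 1222 of the 16985 genes tested. For Zbtb18 the difference between the types was 3.75 ± 0.17 on the log2 scale (adjusted p = 0.00963, edgeR), in the opposite direction, since mutant 3 kept more of it. Mutant 3 thus had the most Zbtb18 of the mutants and the lowest share of its controls for Sox5 (24.6%), Bcl11b (42.4%), Tle4 (43.5%), Tbr1 (44.0%), Fezf2 (44.4%) and Bcl11a (62.9%). The fixed-length mutants held 35.0%, 55.4%, 58.9%, 62.5%, 54.0% and 76.5% of their control for the same genes. Whether library type or mutant 3 itself makes that difference cannot be told apart, since that type holds no other mutant.

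The balance among the 8 genes also differed between the genotypes. Levels of different genes are compared here per length, as TPM (abundance scaled by effective length), which can be read within a library but not across the types. In the estimated-length controls Sox5 was the most abundant of the 8, at 129.9 and 125 TPM, ahead of Tbr1 at 71.1 and 58.7 TPM and Bcl11b at 65.8 and 57.2 TPM. In mutant 3 these genes had closed up, with Tbr1 at 29.6, Bcl11a at 28.9, Sox5 at 27.6 and Bcl11b at 24.9 TPM. These levels sum all transcript models of a gene. Retained introns and processed transcripts held 50.4% and 49.8% of the Sox5 TPM in controls 2 and 3 and 49.3% in mutant 3. For Tbr1 they held 13.1%, 10.7% and 19.3%. Places by coding models alone may therefore differ and were not compared. In the fixed-length control Bcl11a was first at 225 TPM, then Tbr1 at 201, Fezf2 at 151, Sox5 at 133 and Bcl11b at 97.8 TPM. In mutants 1 and 2 Bcl11a remained first, at 189 and 239 TPM, and Sox5 had moved from the fourth to the sixth and the fifth place, at 42.7 and 58.3 TPM. Crym, which was sixth in control 1 at 44.9 TPM, lay ahead of Sox5 in mutant 1 at 66.3 TPM and just behind it in mutant 2 at 55.2 TPM. Tle4 and Zfpm2 lay between 1.37 and 15.3 TPM in all 6 libraries, with Crym beside them in the estimated-length libraries at 2.92 to 5.66 TPM. With 1 library of a genotype in each type, neighbours in these orders were not tested against each other.

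**Figure D3:**
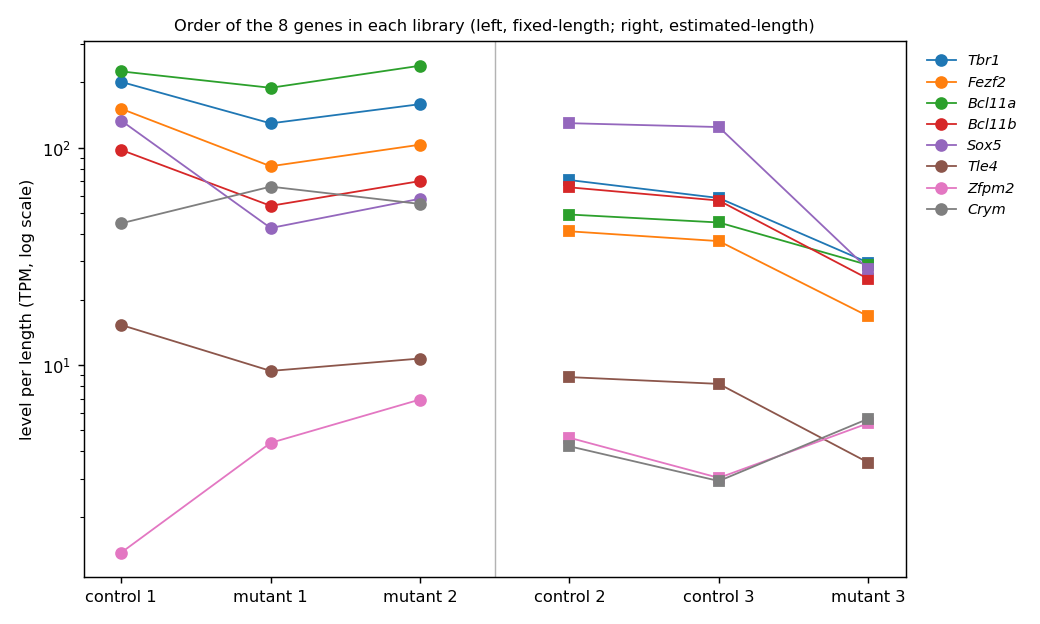
Level per length of the 8 genes in each library, in TPM on a log axis, with the fixed-length libraries on the left (circles) and the estimated-length libraries on the right (squares). With all transcript models of a gene summed, Sox5 drops from the first to the third place in the estimated-length libraries. In the fixed-length ones it drops from the fourth to the sixth and the fifth, while Tle4 and Zfpm2 stay near the bottom.

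Sox5 also fell behind in ratios of counts within a library, where the scaling between libraries cancels. The ratio of Sox5 to Tbr1 was 0.948, 1.37 and 1.55 in the controls and 0.534, 0.529 and 0.814 in the mutants, with no overlap. Those of Fezf2 to Tbr1 were 0.421, 0.373 and 0.398 and 0.357, 0.371 and 0.39, which overlapped. The ratio of Bcl11b to Bcl11a was 0.901, 1.54 and 1.48 in the controls and 0.656, 0.65 and 1.02 in the mutants. It overlapped between genotypes but was lower in the mutants of each type.

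The files list 33 transcript models of the 8 genes, which show whether a gene's change was carried by a single isoform. All 33 were tested, and 6 were called, each with a lower level in the mutants, against 1.74% of 42824 transcripts tested (0.637% fell). Kallisto divides reads shared by isoforms, so these splits are estimates. All 14 models of Sox5 had negative log2 fold changes, from -0.86 to -2.26, and 4 of them were called. The long coding models Sox5-205 and Sox5-201 and the short one Sox5-204, whose start the window above belongs to, had -1.62 ± 0.25, -1.68 ± 0.27 and -1.61 ± 0.25 (adjusted p = 0.0556, 0.0614 and 0.0604, edgeR). These estimates over both types were near-equal, and none passed on its own, but within the types the forms differed. From control 1 to mutants 1 and 2, Sox5-204 went from 217 to 49.2 and 58.3 CPM, and Sox5-205 from 179 to 76.4 and 87.2 CPM. From controls 2 and 3 to mutant 3, Sox5-204 went from 13.9 and 20.7 to 7.55 CPM, and Sox5-205 from 202 and 216 to 48.3 CPM. The short form thus lost the larger part in the first type and the smaller part in the second, which was not tested. Sox5-204 made up 33.1% of the gene's TPM in control 1 and 23.0% and 24.1% in mutants 1 and 2, but at most 1.5% in any estimated-length library.

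Fezf2 has 1 model in the files, Fezf2-201, with -0.99 ± 0.11 (adjusted p = 0.0234, edgeR). Of the Bcl11b models, Bcl11b-201, with 4 exons, went from 622, 539 and 573 CPM to 346, 371 and 241 CPM and was called (adjusted p = 0.0342, edgeR), and Bcl11b-203, with 3 exons, had -0.79 ± 0.25 and was not (adjusted p = 0.303). Bcl11b-201 held 95.2% to 96.8% of the gene's TPM in the fixed-length libraries and 39.0% to 41.1% in the estimated-length libraries, in both genotypes, so this split followed the library type. For Bcl11a the models diverged. Bcl11a-202, the longest coding model, had -0.64 ± 0.10 and Bcl11a-201 had 0.01 ± 0.37 (adjusted p = 0.0626 and 0.994). In the fixed-length libraries Bcl11a-201 went from 9.5% of the gene's TPM in control 1 to 16.6% and 19.0% in mutants 1 and 2, while in the estimated-length libraries it was at 27.0% and 24.9% in the controls and 25.0% in mutant 3. The fixed-length comparison rests on a single control library, and the difference in this share between the types was not tested. The main models of Tbr1 and Tle4, Tbr1-201, Tle4-201 and Tle4-202, had -0.91 ± 0.15, -0.81 ± 0.20 and -1.06 ± 0.18 and did not pass (adjusted p = 0.0718, 0.182 and 0.0728, edgeR).

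**Figure D4:**
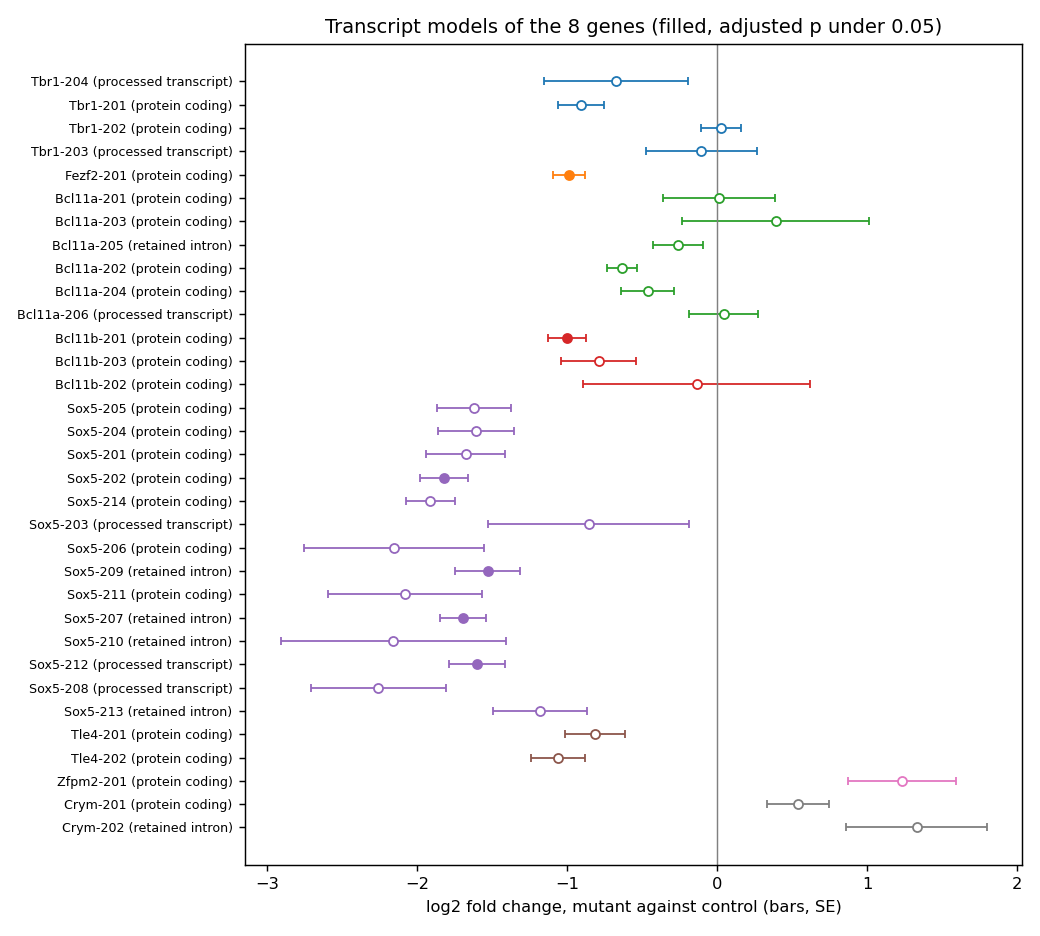
Log2 fold change of mutant against control, with SE bars, for the 33 transcript models of the 8 genes (colours, genes; filled points, adjusted p under 0.05). The 14 models of Sox5 all lie below 0, whereas those of Bcl11a and Tbr1 are spread up to 0 or above.

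Models without a coding sequence (retained introns and processed transcripts) also followed the library type. They held 8.8% to 11.7% of the TPM of Sox5 in the fixed-length libraries and 49.3% to 50.4% in the estimated-length libraries. For Tbr1 the shares were 1.6% to 3.4% and 10.7% to 19.3%. In the estimated-length libraries mutant 3 was higher than its controls for Tbr1 (19.3% against 13.1% and 10.7%) and for Bcl11a (21.7% against 16.4% and 16.2%), and not for Sox5 (49.3% against 50.4% and 49.8%).

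Other genes of deep-layer identity moved in both directions. Fewer genes of the deep-layer, upper-layer, relative, partner and target lists were called without the library type term, and those counts are given in parentheses. Of 15 tested genes of corticospinal and other subcerebral neurons, 6 fell and 3 rose (4 and 1 without the term, median log2 fold change -0.06). Tox, an HMG-box factor, fell from 61.6, 43.4 and 48.2 CPM in the controls to 10.6, 8.75 and 5.83 CPM in the mutants (log2 fold change -2.81 ± 0.13, adjusted p = 5.88e-05). Ldb2, a LIM-binding cofactor, fell 7.49-fold (adjusted p = 0.000281). Igfbp4, a binding protein of insulin-like growth factors, rose by 1.93 ± 0.08 on the log2 scale (adjusted p = 5.67e-05) and Npr3, a natriuretic peptide receptor, by 5.04 ± 0.29 (adjusted p = 0.000121, edgeR). Genes listed as markers of the same neurons as Fezf2, Bcl11b and Crym thus went opposite ways, and Pcp4 and Crim1, chosen after their values were seen, were not called (log2 fold change 0.22 ± 0.19 and -0.06 ± 0.08, adjusted p = 0.492 and 0.653).

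Of 13 tested genes of layer 6 and the subplate, 6 rose and 4 fell (2 and 1 without the term, median 0.39). Lmo3, a LIM-only cofactor, fell by 3.73 ± 0.20 on the log2 scale (adjusted p = 0.000101). Nr4a2, an orphan nuclear receptor of subplate and layer 6 neurons, rose by 4.13 ± 0.21, from 2.54, 3.39 and 3.93 CPM to 57.6, 67.4 and 49.5 CPM (adjusted p = 7.39e-05). Kcnab1, a potassium channel subunit, rose by 6.05 ± 0.47, from at most 1.85 CPM in the controls to at least 59.2 CPM in the mutants (adjusted p = 0.000391), and Tmem178 rose by 1.11 ± 0.08 (adjusted p = 0.000277, edgeR). Foxp2, a forkhead factor of layer 6 chosen after its values were seen, rose by 1.79 ± 0.15 while Tbr1 and Tle4, which share that layer, fell (adjusted p = 0.000561). Ntsr1, a receptor gene that marks corticothalamic neurons and likewise chosen after its values were seen, fell by 3.76 ± 0.31 (adjusted p = 0.000513).

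Of 11 tested transcription factors of callosal and upper-layer neurons, 6 fell and 2 rose (2 and 0 without the term, median -0.36). Without control 1 only 3 fell and 3 rose, and the 2 rises became 1 without control 2, control 3 or mutant 1 and 0 without mutant 3. Mef2c fell by 1.94 ± 0.21, Rorb by 1.29 ± 0.16 and Cux2 by 1.10 ± 0.16 on the log2 scale (adjusted p = 0.00147, 0.00258 and 0.00507, edgeR).

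Among family relatives of the 8 genes, 3 of 8 tested rose and 1 fell (1 and 0 without the term, median 0.57), and the fall was not called without control 1. Sox6, the SOXD partner of Sox5, rose from 5.21, 3.17 and 3.41 CPM to 17.2, 15.2 and 17.1 CPM (log2 fold change 2.01 ± 0.20, adjusted p = 0.00101). Eomes, the T-box relative of Tbr1 that marks intermediate progenitors, rose 4.01-fold (adjusted p = 0.00485), and Zfpm1 (FOG1), the relative of Zfpm2, by 1.57 ± 0.18 on the log2 scale (adjusted p = 0.0019). Tle1 fell by 0.56 ± 0.07 on the log2 scale in the same direction as Tle4 (adjusted p = 0.00299, edgeR). Of 18 tested genes for protein partners, most of them subunits of the NuRD corepressor that BCL11 proteins bind, 1 fell and 2 rose (1 and 0 without the term, median -0.07). That share is near the 14.9% of all genes called. The rises became 1 without mutant 3 or any 1 control. Mta3, a NuRD subunit, fell by 1.73 ± 0.08 on the log2 scale (adjusted p = 5.88e-05), and the orphan receptors Nr2f2 and Nr2f1, COUP factors that bind BCL11 proteins, rose by 1.30 ± 0.11 and 0.48 ± 0.08 (adjusted p = 0.000645 and 0.0121).

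Of 11 tested genes reported elsewhere as regulated by TBR1, FEZF2 or CTIP2, 3 fell and 1 rose (1 and 0 without the term, median 0.03), and 2 rose without mutant 3. Slc17a7, the vesicular glutamate transporter VGLUT1 that FEZF2 activates, fell from 162, 115 and 102 CPM to 57.0, 60.8 and 25.3 CPM (log2 fold change -1.77 ± 0.16, adjusted p = 0.000662). Slc17a6, the related VGLUT2, rose from 31.8, 24.1 and 22.6 CPM to 57.8, 49.7 and 72.7 CPM (1.20 ± 0.19, adjusted p = 0.0075). Grin2b, an NMDA receptor subunit gene that TBR1 activates, fell by 0.97 ± 0.10 and Cdh8 by 1.27 ± 0.14 on the log2 scale (adjusted p = 0.00103 and 0.00193, edgeR). Reln and Auts2, further TBR1 targets chosen after their values were seen, were not called (0.25 ± 0.16 and -0.14 ± 0.16, adjusted p = 0.357 and 0.606).

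**Figure D5:**
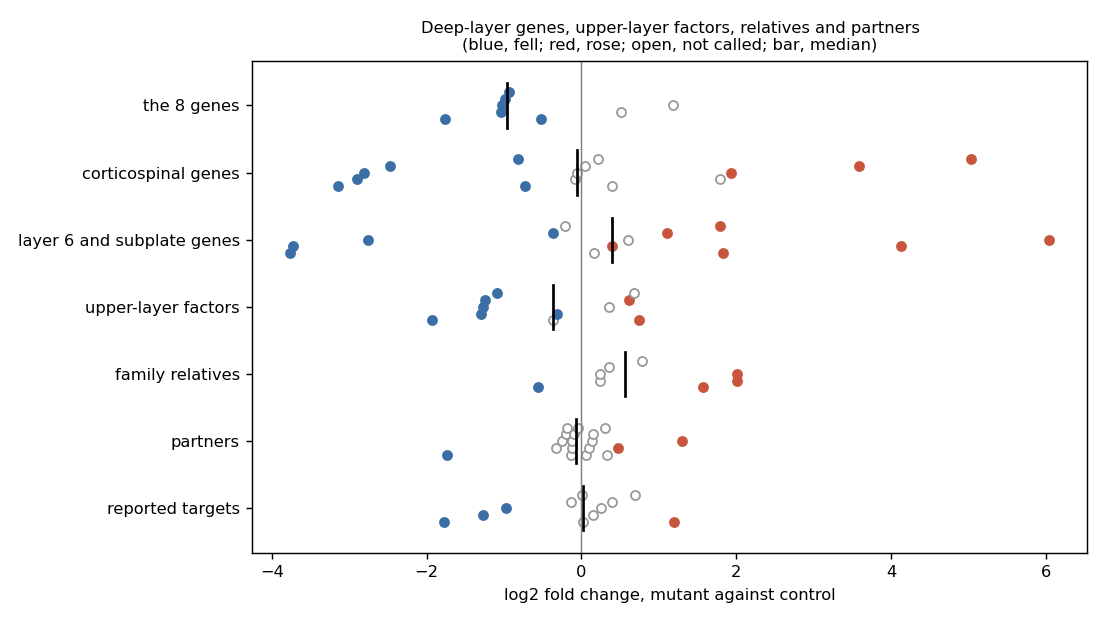
Log2 fold change of mutant against control for the 8 genes and for each tested gene of 6 related lists (blue, fell; red, rose; open, not called; bar, median of the row). The 8 genes lie mostly below 0 (median -0.96), whereas genes of corticospinal and layer 6 neurons spread from below -3 to above 5.

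The genes whose levels over the 6 libraries were most like those of Sox5, the member with the smallest p, were Bcl2, Adamts17, Sel1l3 and Lnx2. Their root mean square distances of centred log2 CPM were 0.089, 0.102, 0.124 and 0.143 over 6 libraries, among 8711 protein-coding genes with a mean of at least 10 CPM. Bcl2, a survival gene, had 42.3, 69.6 and 69.1 CPM in the controls and 12.2, 12.6 and 16.1 CPM in the mutants. For Bcl11a, the member with the highest mean TPM, they were Abcb10, Gpr155, Dtx1 and Rab23, at distances of 0.0415, 0.0759, 0.0839 and 0.0849. These likenesses describe the libraries, which share genotype and library type, and carry no test.

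All 12 pan-neuronal genes were detected in both genotypes, but several of them fell. Their detection does not test the neuronal label, since progenitor genes were detected too. Stmn2 fell by 1.37 ± 0.09, Gap43 by 1.14 ± 0.11 and Neurod6 by 0.51 ± 0.11 on the log2 scale, and Rbfox3 rose by 1.06 ± 0.13 (adjusted p = 0.000217, 0.000931, 0.0231 and 0.00248, edgeR). In all 4 of 12 fell and 1 rose (none without the term, and 2 fell without mutant 3 or any 1 control, and 2 rose without mutant 2), and their summed level was 6693 to 10436 CPM in the controls and 5435 to 8687 CPM in the mutants. Neurod2, a neuronal factor chosen after its values were seen, had 618, 617 and 643 CPM in the controls and 602, 565 and 578 CPM in the mutants (log2 fold change -0.10 ± 0.08, adjusted p = 0.453).

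Of 8 tested markers of intermediate progenitors, 5 rose (1 without the term, 3 without control 1), among them Neurog2 (1.97 ± 0.11), Mfap4 (2.05 ± 0.18) and Btg2 (0.89 ± 0.15, adjusted p = 0.000123, 0.000601 and 0.00891, edgeR). Their summed level was 219 to 343 CPM in the controls and 479 to 735 CPM in the mutants. Of 12 radial glia genes 4 rose and 4 fell, with Hes1 and Pax6 up by 4.91 ± 0.24 and 1.85 ± 0.10 and Ptprz1 and Fabp7 down (adjusted p from 7.11e-05 to 0.000611), and the sums were 485 to 720.2 CPM against 231 to 282 CPM. Without Ptprz1 alone the sums overlapped, at 240.4, 109 and 125 CPM in the controls and 218, 215 and 104 CPM in the mutants, and without control 1 only 2 radial glia genes rose. Of 8 Cajal-Retzius genes, a cell type that also uses Tbr1, 3 rose (Nhlh2, Ebf3 and Calb2), none fell, and the sums of 248 to 772 CPM and 349 to 808 CPM overlapped. Without the type term 3 radial glia genes rose and 1 fell, and 2 Cajal-Retzius genes rose. The part of these cell types in the falls of 6 of the 8 genes was not tested, and in bulk RNA fewer cells of a type and less RNA per cell cannot be told apart.

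Of 8 tested striatal genes, from a tissue that shares Bcl11b, 3 rose, among them Ebf1 and Tac1, and 3 fell (Ppp1r1b, Foxp1 and Penk), with sums of 151 to 162 CPM in the controls and 116 to 148 CPM in the mutants. Of the defining striatal genes, chosen after their values were seen, Isl1 and Drd2 stayed under 1 CPM in all libraries. Drd1 had 6.1, 20.5 and 17.5 CPM in the controls and 6.89, 8.16 and 11.9 CPM in the mutants and was not called (adjusted p = 0.643, edgeR). Of 8 tested interneuron genes 3 rose, among them Npy and Dlx5, and none fell. The sum was 1.94 to 7.2 CPM in the controls and 97.2 to 161 CPM in the mutants. Npy made up nearly all of the sum in the mutants but had at most 0.426 CPM in the controls. Without the type term 1 interneuron gene and 3 striatal genes rose and none fell. The defining interneuron genes Gad1, Gad2 and Lhx6 were under 1 CPM in each library. Endothelial, microglial and erythroid genes summed to at most 5.41, 2.49 and 20.9 CPM in any library. Among them 1 of 4 tested endothelial genes rose, Kdr, at most at 1.58 CPM, and it was not called without mutant 3. Of the 2 tested microglial and 5 tested erythroid genes none was called, and the most abundant were Cx3cr1 and Hba-a1.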

How the data were processed

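The labels name a strand-specific total RNA library kit and a single sequencing instrument for every sample, and per the submitters' processing notes the tools were FastQC and kallisto with the mm9 build, with no versions. Per the file headers, the deposited tables give for each of 97251 transcripts its length and effective length in bases, an estimated count (reads assigned by kallisto, not normalized) and a TPM value scaled by the authors by effective length and total. The length and effective length are other values deposited by the authors.

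Of the transcripts, 84637 (87.0%) matched GENCODE vM21 and were summed to 34289 genes and rounded. Those that did not match held 6.85% to 8.58% of counts. The annotation is of a later build than the one named, and promoter coordinates are RefSeq's own.

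Genotypes were compared with edgeR 4.0.16 in R 4.3.3 (TMM, filterByExpr, quasi-likelihood test, adjusted p under 0.05, prior count of 2 for fold changes) on all 6 libraries with a term for library type. SE is the log2 fold change divided by the square root of F. Effects within a type came from 1 fit with the spread pooled. In simulated counts with the library type term the test recovered 61.0% of genes changed 2-fold and 81.1% of those changed 4-fold, with 14 false calls among 16654 genes run. DESeq2 1.42.0, no type term, other scalings and filters and each library left out were alternatives. The members, the term and the lists were chosen with earlier results of these data known. Beside the 8 genes and Zbtb18, up to 4 called genes with the smallest p were named per list, or the most abundant gene where none was called. Pou3f2 and Tle5 of the lists were not matched and are not analysed here. Some genes that this rule named are not reported here.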

Additional observations from a re-analysis of the deposited data

Results flagged for a closer look

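Zbtb18 changed by different amounts in the 2 library types. The genotype effect in the estimated-length libraries minus that in the fixed-length libraries was 3.75 on the log2 scale (SE 0.17, adjusted p = 0.00963, edgeR quasi-likelihood test of the difference), with log2 fold changes of -1.61 and -5.36. None of the 8 deep-layer genes differed between the types after adjustment.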

How the results depend on the processing

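The count of 6 called genes among the 8 was 2 without the library type term and, without the term and with a library left out (chosen after seeing the data), between 0 and 1. With the term and a library left out it was between 5 and 7. On all 6 libraries with the term it was 8 with no filter, 7 with other size factors (RLE), 7 by DESeq2 and 5 with length-scaled counts. It stayed at 6 with at least 1 CPM in 3 libraries, and with mitochondrial and the most abundant genes left out. The 8 genes kept their direction under each of 13 alternatives chosen earlier, although Zfpm2 was at 0.021 without the term. Zfpm2 reversed without the term when control 1 or mutant 3 was left out (log2 fold change -0.48 and -1.12), where genotype and type largely coincide. Within the fixed-length and within the estimated-length libraries 6 genes were called in each, and between 2 and 7 with a library left out. Leaving out control 1 or mutant 3 gave no value there, since 1 type then lacks a genotype. The 6 called transcripts became 0 without the term, 11 with other size factors (RLE), 12 with no filter, 13 with at least 1 CPM in 3 libraries, and between 0 and 2 with a library left out. By CPM in place of TPM, 26 of 48 ranks of the genes within libraries stayed. Over all genes 2537 were called with the term, 400 without it and 3894 by DESeq2. Calls over all genes in the other alternatives, and over all transcripts in any alternative, were not counted. The counts for the 8 genes and their transcripts there have no such share beside them. No paired analysis was possible because the library names in the labels carry different numbers in the 2 groups, and the numbers 1 to 3 used here follow accession order.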
